A study of Oryctolagus cuniculus with 6 samples.

Results

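Rabbit blastocysts that had been vitrified were compared with blastocysts that had been slowly frozen, both collected at 6 days of age. Embryos were of New Zealand White rabbits. They had been cryopreserved, warmed and transferred into recipient females, and the viable ones were recovered. Each of the 6 two-colour arrays, which are all arrays of the series, set RNA of treated blastocysts against RNA of untreated blastocysts that had developed in vivo to the same age. There were 3 arrays with vitrified and 3 with frozen embryos, and the value compared is the log2 ratio of treated over control on each array. An array of vitrified embryos was paired with the array of frozen embryos of the same replicate number, since both name the same control extract and carry the treated RNA in the same dye, Cy5 for replicates 1 and 3 and Cy3 for replicate 2. How many embryos made up an extract, and the stage at which they were cooled, are not given in the sources used here. The p-values therefore measure the spread between these extracts.

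Both methods used dimethyl sulphoxide (DMSO). Vitrified embryos passed through 12.5% DMSO with 12.5% ethylene glycol for 2 min and 20% of each for 1 min, and their straws went straight into liquid nitrogen. Slowly frozen embryos passed through 0.5, 1 and 1.5 M DMSO for 5 min each and were cooled at 1 °C per min to -7 °C, where ice was seeded by hand. They were then cooled at 0.3 °C per min to -35 °C before nitrogen. Ethylene glycol was part of the vitrification medium, so cooling rate and medium cannot be told apart here. Both groups share the transfer, which the untreated controls did not have.

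As background, vitrification turns the solution around and inside the embryo into a glass without ice, while slow freezing lets ice grow outside the embryo and draws water out of the cells. The rabbit blastocyst at this age is a large fluid-filled sphere of trophectoderm, the outer epithelium that pumps the fluid, with an embryonic disc of epiblast and an underlying endoderm layer. It lies free in the uterus shortly before it attaches. Its cells burn fatty acids in mitochondria and take up and make amino acids such as serine, which feeds the one-carbon units used for nucleotides and methylation.

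Of the 43603 probes, 30761 were tested, those that the scanner software called well above background 3 or more times in 12 channel measurements. They covered 8120 genes with a symbol. The share of spots above background was 44.8% to 58.0% in green and 64.2% to 74.5% in red. Trophectoderm markers such as the keratins KRT8 and KRT19 and the factors GATA2 and GATA3, and the epiblast factor POU5F1, were well above background in all 12 measurements. Others of these lists were so less often. HAND1 of the trophectoderm list was so in the treated channel of 3 vitrified and 2 frozen arrays. NODAL and ETV4 of the epiblast list were so on 2 and 2. The trophectoderm factor ELF5, the leukocyte marker PTPRC, the T cell marker CD3E and the liver products ALB and TTR were so in no measurement. Other members of the same lists were detected. The myeloid markers CD14, CD68 and ITGAM were well above background in the treated channel of 3 vitrified arrays each, and of 3, 2 and 2 frozen arrays. The serum proteins APOA1, APOA2, TF, RBP4 and FGB were so in all 12 measurements.

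No probe passed the test between vitrified and frozen embryos. In limma's moderated test on the 3 pairs, 0 of 30761 probes (0%) had an adjusted p under 0.05, and the smallest was 0.411. At an unadjusted p under 0.05 there were 2619 probes (8.51%), 1435 higher (4.66%) and 1184 lower (3.85%) in vitrified embryos. Among genes, each by its brightest probe, 404 (4.98%) were higher and 305 (3.76%) lower at that level. A difference of 1 log2 unit or more, which is at least 2-fold, was seen for 26 genes (0.32%). On simulated data of the same size, the fit called 30.3% of 2-fold and 95.25% of 4-fold changes. The values below therefore describe differences that did not pass, and "higher" or "lower" compares means.

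The first pair of arrays differed from the others. Across all tested probes, the vitrified minus frozen differences of pairs 2 and 3 correlated at r = 0.50, those of pairs 1 and 2 at 0.04 and those of pairs 1 and 3 at -0.18. These are descriptions across probes, and the arrays of a pair share a dye orientation. Without pair 1, a fit on the 2 other pairs called 875 probes (2.84%), 502 higher and 373 lower in vitrified embryos. Of these, 235 of the higher and 141 of the lower lay on the same side of 0 in pair 1. Without pair 2 or without pair 3, 0 probes were called, with 809 and 1693 at an unadjusted p under 0.05. Pair 1 lies on one slide and pair 3 on the other, while pair 2 has an array on each, so pairs 1 and 3 are also the values within each slide.

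**Figure D1:**
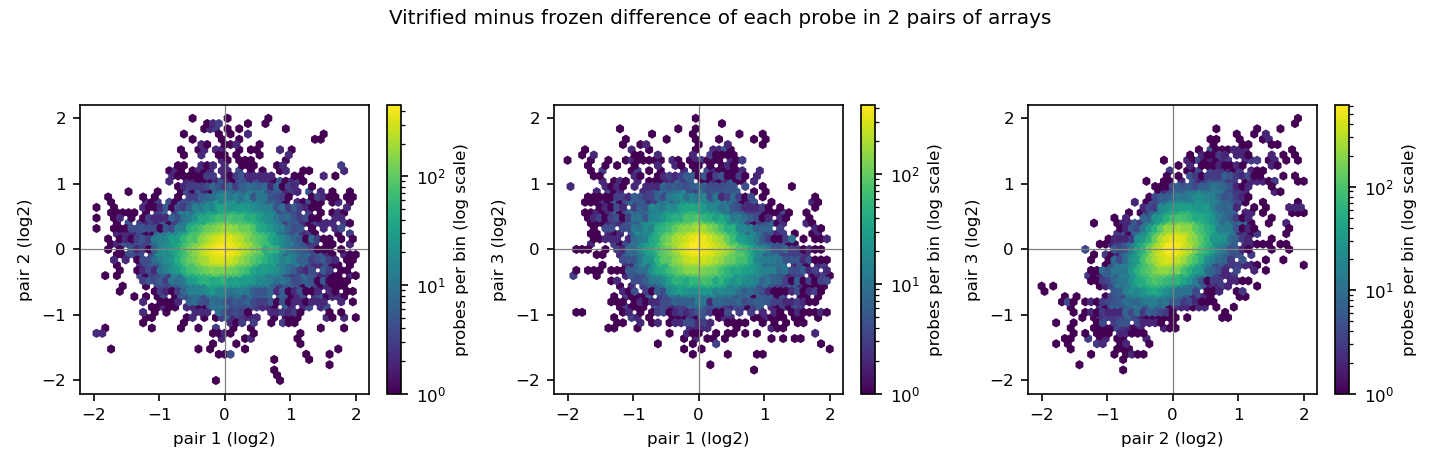
Vitrified minus frozen difference (log2) of each tested probe in one pair of arrays against another. Colour gives the number of probes per bin on a log scale, and 89 probes beyond 2 log2 units in any pair lie outside the panels. Pairs 2 and 3 (r = 0.50) spread along the diagonal, and pair 1 does not follow either of them.

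Enzymes of serine synthesis were among the highest. PSAT1, the transaminase that carries out the middle step of serine synthesis, had the largest difference of any gene named by symbol, 1.77 ± 0.29 (log2, SE, n = 3 pairs, adjusted p = 0.442). Its ratio was 0.78, 1.58 and 2.17 on vitrified arrays 1, 2 and 3 and -0.16, -0.24 and -0.39 on the frozen arrays. All vitrified arrays were above their controls and all frozen arrays slightly below, with no overlap. All 6 tested PSAT1 probes were higher in vitrified embryos, by 1.15 to 1.77, and they cover 3 separate stretches of the transcript. PSAT1's control signals differed by -0.02, -0.02 and 0.01 between the arrays of a pair, so its difference lay in the treated channel.

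Of the PSAT1 probes, 4 overlap almost fully, and a probe without a gene symbol in the files shares their sequence. They are shown because they measure nearly the same 60 bases 5 times over and so give the spread between probes alone. The 56 bases that all of them share are in capitals, and they lie on chromosome 1 between 64727048 and 64727111 on the plus strand, by the coordinates in the files, whose genome build no label or header names. Exon annotation was not used here.
A_04_P072596 (no symbol): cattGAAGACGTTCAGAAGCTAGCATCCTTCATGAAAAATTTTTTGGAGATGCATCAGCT
A_04_P072595 (PSAT1): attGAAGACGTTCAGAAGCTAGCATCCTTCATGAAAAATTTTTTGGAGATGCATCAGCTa
A_04_P072594 (PSAT1): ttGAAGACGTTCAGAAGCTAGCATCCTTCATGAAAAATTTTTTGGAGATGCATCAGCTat
A_04_P072593 (PSAT1): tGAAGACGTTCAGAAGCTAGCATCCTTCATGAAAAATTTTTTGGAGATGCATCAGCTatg
A_04_P072592 (PSAT1): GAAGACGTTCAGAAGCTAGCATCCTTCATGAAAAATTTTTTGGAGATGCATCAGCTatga
In this order the differences were 1.35, 1.37, 1.37, 1.36 and 1.15. The unnamed probe thus read as its neighbours did, with 0.85, 1.50 and 1.68 in pairs 1, 2 and 3.

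PHGDH, the first and rate-setting enzyme of serine synthesis, was 1.30 ± 0.24 higher in vitrified embryos (adjusted p = 0.452). Its ratio was 0.95, 1.06 and 1.23 on the vitrified and 0.31, -0.86 and -0.10 on the frozen arrays, again with no overlap. On the frozen arrays its treated signal stood well above background in 2 of 3. PHGDH was measured by a single probe at 44695059 to 44695118 on chromosome 13, minus strand, shown so that the value can be tied to its target.
PHGDH: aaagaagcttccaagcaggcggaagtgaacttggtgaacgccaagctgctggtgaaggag
The third enzyme of the pathway, PSPH, was not analysed here.

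SLC1A5, the carrier that brings glutamine and other neutral amino acids into cells, was 0.95 ± 0.12 higher in vitrified embryos (adjusted p = 0.411). The difference was nearly the same in each pair, 0.952, 0.950 and 0.945 in pairs 1, 2 and 3. The ratio was 0.42, 0.39 and 0.84 on the vitrified and -0.53, -0.56 and -0.11 on the frozen arrays. SLC1A5's other probe, on another stretch, gave 0.65.

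The list of serine, glycine and folate genes as a whole did not lean one way. Of its 17 tested members, 11 were above and 6 below 0, with a median of 0.09 against 0.02 over all tested genes. At an unadjusted p under 0.05, 5 were higher (PSAT1, PHGDH, SLC1A5, SHMT2 and ALDH1L1) and 2 lower. Among all genes 4.98% were higher and 3.76% lower at that level. SHMT2, which turns serine into glycine in mitochondria, was 0.45 ± 0.15 higher, and the folate enzyme ALDH1L1 0.38. Lower were MTHFD2, the next mitochondrial step after SHMT2, at -0.59, and GCSH, a carrier protein of the glycine cleavage system, at -0.38. Without PSAT1, PHGDH and SHMT2, whose values were known when the list was written, the median was 0.01. Of the 14 members left, 2 were higher and 2 lower at an unadjusted p under 0.05. Targets of ATF4, the factor that answers amino acid shortage, were above 0 for 11 of 12, with a median of 0.14. At an unadjusted p under 0.05, 4 were higher, against 4.98% of all genes. Of these, CHAC1 was at 0.51 ± 0.14 and STC2 at 0.44 ± 0.12, and without pair 1, 2 or 3 the members below 0 numbered 2, 3 and 2.

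**Figure D2:**
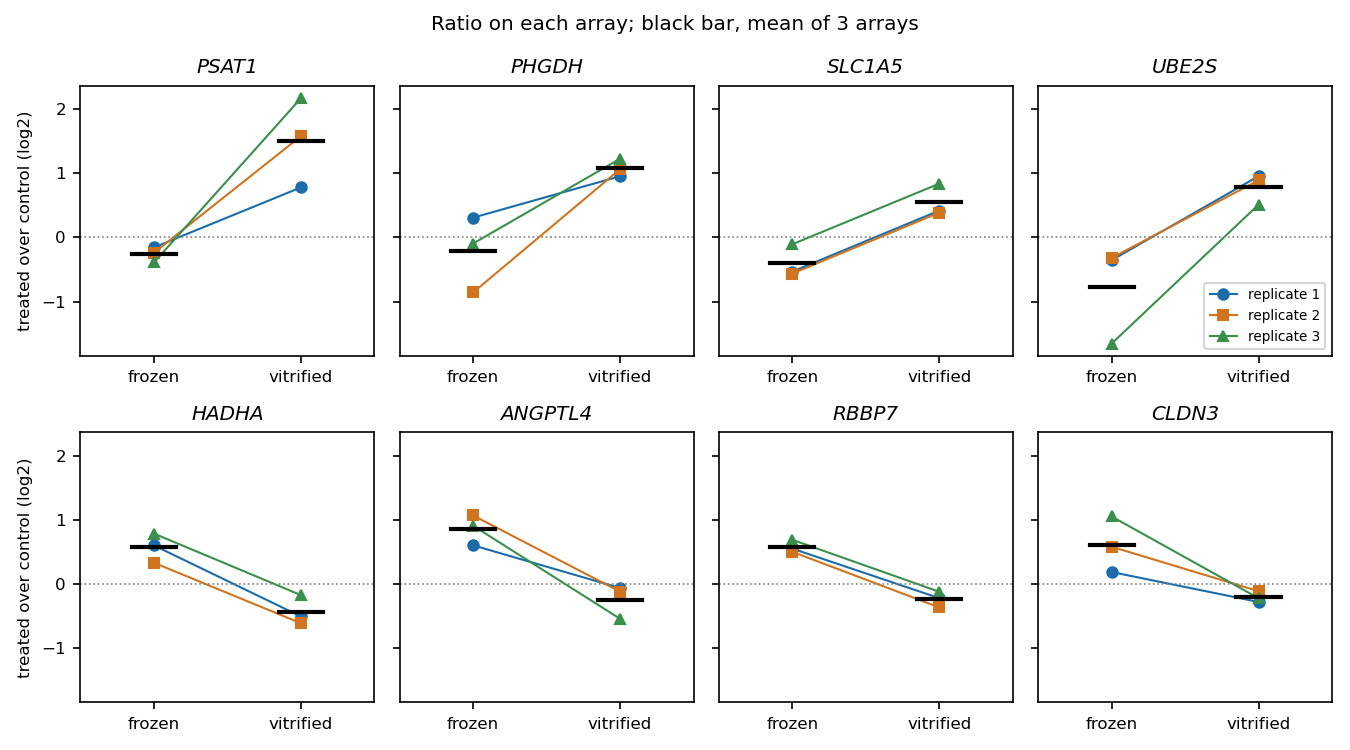
Log2 ratio of treated over control on each array for 8 genes, with lines joining the frozen and vitrified arrays of a replicate number and black bars for the mean of 3 arrays. In PSAT1, PHGDH, SLC1A5 and UBE2S every line goes up, and in HADHA, ANGPTL4, RBBP7 and CLDN3 every line goes down.

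Most listed genes of fatty acid oxidation were lower in vitrified than in frozen embryos, and the list's median was below 0 in all 3 pairs. A further 11 enzymes of fatty acid oxidation, grouped later, had a median of -0.01. Of the 22 tested members of the list of fatty acid oxidation genes and PPAR targets, 20 were below 0, with a median of -0.29. Its medians in pairs 1, 2 and 3 were -0.48, -0.34 and -0.39, those of all genes -0.02, 0.04 and 0.02. At an unadjusted p under 0.05, 10 members were lower and 0 higher, against 3.76% lower among all genes, and 15 were lower in all 3 pairs, against 15.4%. The values of HADHA, ANGPTL4, ACSL1 and ACSL6 were known when the list was written. Without them 16 of 18 members were below 0, with a median of -0.27. Without pair 1, 7 of the 22 were called lower (31.8%) by limma's moderated test on 2 pairs, against 0.911% of all genes. Without pair 2 or without pair 3, 0 probes of any gene were called. Over the list, the median ratio was -0.08 on vitrified and 0.32 on frozen arrays.

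The last 3 reactions of each round of mitochondrial oxidation are carried out on long chains by a protein made of HADHA and HADHB. HADHA was at -1.004 ± 0.123 (adjusted p = 0.411). Its ratio was -0.51, -0.61 and -0.17 on the vitrified and 0.60, 0.33 and 0.79 on the frozen arrays. Every vitrified array was thus below its control and every frozen array above. Its single probe lies at 159705597 to 159705656 on chromosome 2, plus strand.
HADHA: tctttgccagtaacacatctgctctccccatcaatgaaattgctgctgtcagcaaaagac
HADHB was at -0.72, with -0.58, -0.76 and -0.82 in the 3 pairs.

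On shorter chains the same reactions are shared out among single enzymes. HADH, the dehydrogenase of medium and short chains, was at -0.75 ± 0.13 (adjusted p = 0.442), with ratios of -0.43, -0.50 and -0.10 on the vitrified and 0.52, 0.20 and 0.51 on the frozen arrays. ACAA2, the thiolase that releases acetyl-CoA, was at -0.68 and ACADM, which opens the round on medium chains, at -0.55. Each of these lay below 0 in all 3 pairs. ACADVL, which opens the round on very long chains, was near 0, with 0.36, 0.10 and -0.47 in the pairs. Named members beyond HADHA and ANGPTL4 were chosen after their values were seen.

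Upstream of the mitochondrion the picture was mixed. Of the enzymes that activate fatty acids, ACSL1 was at -0.61, ACSL6 at -0.50, ACSL3 at -0.29 and ACSL4 at -0.02. CPT2 and SLC25A20, which carry activated fatty acids across the inner membrane, were at -0.12 and -0.21 but above 0 in pair 1. The uptake protein CD36 was at -1.35, 0.22 and 0.68 in the pairs and thus had no common direction. FABP3, which binds fatty acids in the cytosol, was at -0.50. Among the PPAR receptors, which switch on these genes when they bind fatty acids, PPARD was at -0.30, PPARA at -0.15 and PPARG at 0.01.

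ANGPTL4, a secreted inhibitor of lipoprotein lipase and a classic PPAR target, was lower by more than HADHA, at -1.10 ± 0.18 (adjusted p = 0.411). Its ratio was -0.06, -0.12 and -0.54 on the vitrified and 0.60, 1.07 and 0.91 on the frozen arrays, with no overlap.

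Related mitochondrial genes, grouped after these values were seen, were closer to 0. Of 16 citric acid cycle genes 14 were below 0, with a median of -0.16. At an unadjusted p under 0.05, 3 were lower (IDH3A, SDHD and IDH2), against 3.76% of all genes. Of 26 subunits of the respiratory chain and ATP synthase 16 were below 0, with a median of -0.02. Of 11 other enzymes of fatty acid oxidation, 6 were below 0, with a median of -0.01. HSD17B4, a peroxisomal oxidation enzyme, was the lowest of these, at -0.62.

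Both channels contributed to the fatty acid oxidation values. The treated signal of the list was lower on vitrified arrays, by a median of -0.28, while the control signal was higher on them, by a median of 0.15. For HADHA these were -0.47 and 0.54. By the treated signals alone, 19 of 22 members were below 0. The control channels of a pair name the same extract, so a difference between them also holds the effects of the array and spot, and their part in the result was not tested. With the log ratio as deposited, the list's median was -0.47.

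**Figure D3:**
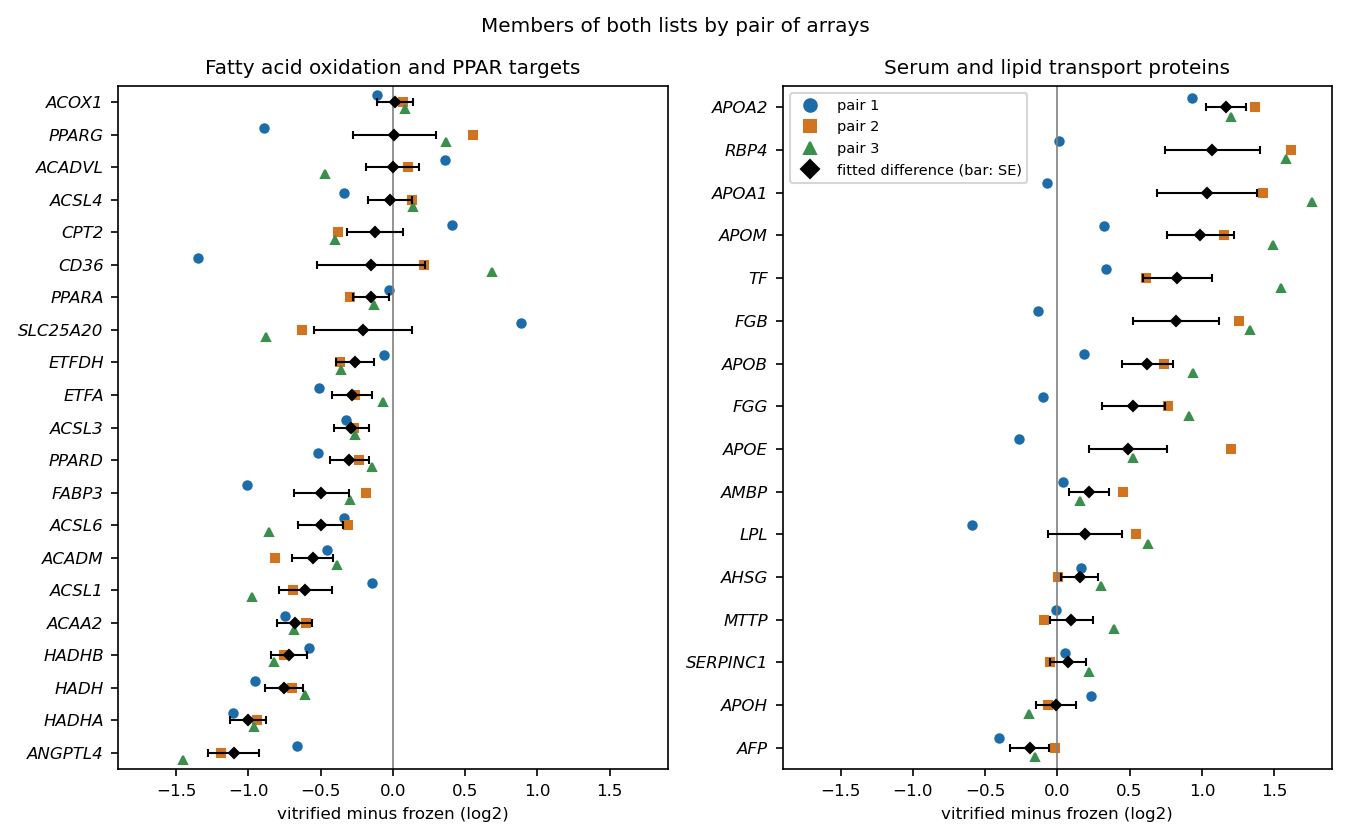
Vitrified minus frozen difference (log2) of 21 tested members of the list of fatty acid oxidation genes and PPAR targets and of the list of serum and lipid transport proteins (16 genes). Coloured symbols are the 3 pairs and diamonds the fitted difference with its SE. The lowest genes of the left panel keep their side in all 3 pairs, while the 8 highest genes of the right panel all have pair 1 as their lowest value.

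Serum and lipid transport proteins, which the endoderm of the embryo makes, were higher in vitrified embryos, but in pairs 2 and 3. Of 16 tested members 14 were above 0, with a median of 0.51 and 7 higher at an unadjusted p under 0.05, against 4.98% of all genes. The medians of pairs 1, 2 and 3 were 0.03, 0.68 and 0.77. Without APOA2, APOA1, APOB, RBP4, TF and FGG, whose values were known when the list was written, the median was 0.17, with 8 of 10 above 0 and 2 higher at an unadjusted p under 0.05. Without pair 1, 9 of the 16 were called higher (56.2%), against 1.65% of all genes, by limma's moderated test on 2 pairs. That fit leaves out the pair with the lowest median of the list, which favours such calls. Without pair 2 or without pair 3, 0 probes of any gene were called. Without pair 2 the list's median was 0.32.

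APOA2, a protein of high-density lipoprotein, was at 1.17 ± 0.14 (adjusted p = 0.411). Its ratio was -0.35, 0.54 and 0.05 on the vitrified and -1.28, -0.83 and -1.15 on the frozen arrays. The frozen arrays were thus all below their controls, and the groups did not overlap. All 5 APOA2 probes, which overlap one another, gave 1.05 to 1.17. APOM, which carries sphingosine phosphate in lipoproteins, was at 0.99 ± 0.23, with 0.32, 1.15 and 1.49 in the pairs.

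RBP4, the retinol carrier, was at 1.07 ± 0.33 (adjusted p = 0.521). Its ratio was -1.34, 0.10 and 0.71 on the vitrified and -1.35, -1.52 and -0.87 on the frozen arrays, so vitrified array 1 read as the frozen arrays did. TF, transferrin, was at 0.83 ± 0.24, with 0.34, 0.61 and 1.54 in the pairs. APOA1 was at 1.04 and FGB, a fibrinogen chain, at 0.82, and both were slightly below 0 in pair 1, at -0.07 and -0.13. AFP, made by early endoderm as well, was at -0.19.

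The endoderm's own regulators differed less. Of 6 tested, 4 were above 0, with a median of 0.17. CER1, a secreted inhibitor of Nodal and BMP made by the anterior endoderm, was at 0.47 ± 0.14 and the factor GATA4 at 0.46 ± 0.16 (adjusted p = 0.520 and 0.555). For GATA4 the treated signal differed by 0.20 and the control signal by -0.27. GATA4's ratio was 0.01, 0.35 and 0.38 on the vitrified and -0.09, -0.37 and -0.20 on the frozen arrays. The log2 of the summed treated signal of the 6 ranged from 14.11 to 14.24 on vitrified and from 14.05 to 14.25 on frozen arrays, and so overlapped. In bulk RNA, fewer cells of a type and less RNA per cell cannot be told apart.

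Beyond these groups, the 14 genes with the largest differences upward held UBE2S, the enzyme that extends ubiquitin chains on substrates of the anaphase-promoting complex in mitosis. UBE2S was at 1.56 ± 0.21 (adjusted p = 0.411). Its ratio was 0.95, 0.89 and 0.51 on the vitrified and -0.36, -0.32 and -1.66 on the frozen arrays, with no overlap. Each of its channels differed by more than that within single pairs: the treated signal by -1.22, 2.98 and 1.34 and the control signal by -2.53, 1.77 and -0.83 in pairs 1, 2 and 3. Its single probe has no position in the files.
UBE2S: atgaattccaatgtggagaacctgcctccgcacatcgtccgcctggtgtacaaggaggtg
Of the 19 tested genes of cell division and the anaphase-promoting complex, UBE2S included, 8 were above 0, with a median of -0.04. CDK2, a kinase of the step into DNA synthesis, was at -0.39 ± 0.12.

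MDK, a heparin-binding growth factor, was at 1.14 ± 0.22, with 1.68, 1.16 and 0.59 in pairs 1, 2 and 3. BMP2, a signalling ligand of the TGF-beta family, was at 0.99 ± 0.21, with 0.46, 0.98 and 1.52, and its 8 probes on 3 stretches gave 0.38 to 0.99. IGF1, insulin-like growth factor 1, was at 0.97 ± 0.19, with 0.46, 1.09 and 1.35, and its 5 probes overlap. The frozen arrays of BMP2 (-1.08, -0.88 and -0.97) and of IGF1 (-1.22, -1.10 and -0.88) were all below their controls.

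Calcium-binding and matrix proteins followed. TNNC1, the slow-muscle and cardiac troponin C, was at 1.41 ± 0.32, with 0.38, 1.89 and 1.94 in the pairs, and its other probe gave 0.83. ANXA3, a membrane-binding annexin, was at 1.13 ± 0.29, with 0.22, 1.69 and 1.49. S100A11, an EF-hand protein that binds annexins, was at 1.13 ± 0.28 but with the reverse weighting, 1.82, 1.29 and 0.29. Of 14 annexins and S100 proteins 10 were above 0, with a median of 0.21. At an unadjusted p under 0.05, 3 were higher, the third being S100A1, against 4.98% of all genes. ECM1, a secreted matrix protein, was at 1.02 ± 0.17, and both of its channels were higher on the vitrified arrays, the treated by 1.46 and the control by 0.45.

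LIX1 was at 1.33 ± 0.17 (adjusted p = 0.411), with ratios of 0.21, 0.89 and 0.36 on the vitrified and -1.21, -0.78 and -0.56 on the frozen arrays. Its treated signal differed by 0.69 and its control signal by -0.64, and the treated signal was well above background on 2 of 3 frozen arrays. CYP2A11, a cytochrome P450, was at 1.16 ± 0.29, but on frozen arrays its treated signal stood well above background in 1 of 3. TNFAIP6, a hyaluronan-binding protein, was at 0.90 ± 0.14 with 7 of 7 overlapping probes above 0. For TNFAIP6 the control signal held the larger part, at -0.51 against 0.39 for the treated signal. A_04_P033418, a probe without a gene symbol, was at 1.31 ± 0.32.

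**Figure D4:**
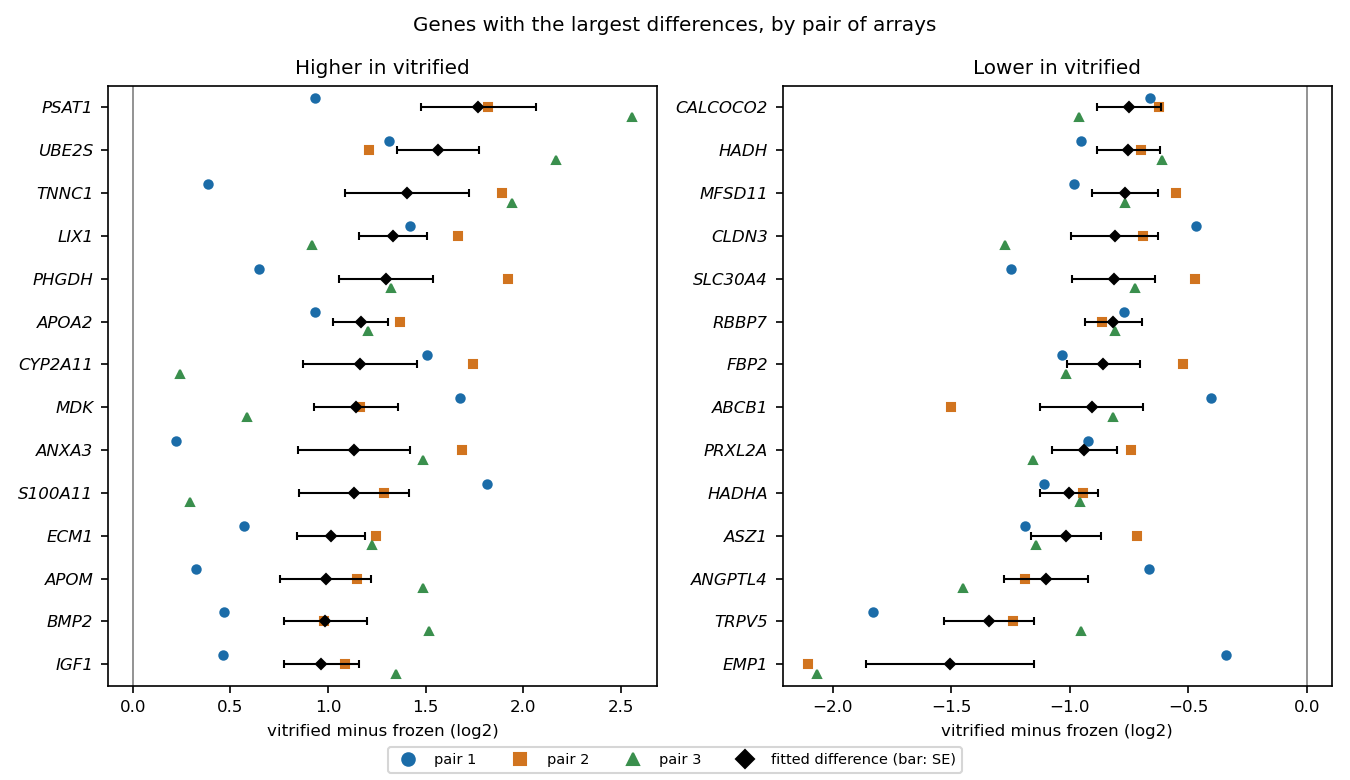
Vitrified minus frozen difference (log2) for the 14 genes with the largest differences in each direction, among those at an unadjusted p under 0.01 with the same sign in all 3 pairs. Coloured symbols are the 3 pairs, diamonds the fitted difference and bars its SE. HADHA and RBBP7 have nearly equal values in the 3 pairs, while EMP1 and TNNC1 have pair 1 well apart.

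Genes of basement membrane and matrix leaned upward. Of 16 tested, 14 were above 0, with a median of 0.21. At an unadjusted p under 0.05, 6 were higher and 0 lower, against 4.98% and 3.76% of all genes. In all 3 pairs 9 were higher, against 18.3% of all genes. Without members whose values were known when the list was written, 12 of 14 were above 0, with a median of 0.17. Of those 14, 4 were higher at an unadjusted p under 0.05. COL4A2, a chain of the basement membrane's collagen IV, was at 0.63 ± 0.15 and its partner COL4A1 at 0.67, and NID1, which links collagen IV to laminin, was at 0.71. TIMP3, an inhibitor of matrix-degrading enzymes, was at 0.46 and the collagen I chain COL1A2 at 0.39. ESM1, a secreted proteoglycan, was at 0.60 ± 0.16, but its treated signals alone gave -0.26. Without pair 3, 5 of the 16 were below 0 instead of 2. The laminin chain LAMC1 had no common direction, at -1.33, -0.08 and 1.01 in the pairs.

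Among the 14 genes with the largest differences downward, EMP1, a membrane protein of epithelia, had the lowest mean, -1.51 ± 0.35 (adjusted p = 0.497). Its ratio was 1.50, -0.94 and -0.74 on the vitrified and 1.85, 1.16 and 1.32 on the frozen arrays. Vitrified array 1 thus lay among the frozen arrays. The scanner software marked EMP1's spot as an outlier on 1 array, and without it the difference was -1.50. EMP1's other probe gave -1.41.

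TRPV5, a calcium channel of epithelia, was at -1.34 ± 0.19 (adjusted p = 0.411). Its ratio was -0.53, 0.12 and -0.40 on the vitrified and 1.30, 1.36 and 0.56 on the frozen arrays, with no overlap. Its probes disagree in size: the 2 that overlap, starting at 9228809 and 9228839 on chromosome 7, gave -1.34 and -1.40, and the third, starting at 9206749, gave -0.34. In the list of calcium channels, pumps and binding proteins, 13 of 18 tested genes were below 0, with a median of -0.08. At an unadjusted p under 0.05, 3 were lower and 3 higher, against 3.76% and 4.98% of all genes. The lower ones were TRPV5, the related channel TRPV6 at -0.49 and CASQ2, a calcium store protein, at -0.73.

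RBBP7, a histone-binding subunit of several chromatin complexes, was at -0.82 ± 0.12 (adjusted p = 0.411). Its ratio was -0.22, -0.37 and -0.12 on the vitrified and 0.55, 0.50 and 0.69 on the frozen arrays, with no overlap. Its other probe, on another stretch, gave -0.92. The treated signal of RBBP7 was lower by -0.27 and the control signal higher by 0.54. Other genes of repressive chromatin did not follow: 10 of 14 were above 0, with a median of 0.09, and the histone methyltransferase EHMT2 was at 0.54 ± 0.14.

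ASZ1, a germ cell protein that guards against transposons, was at -1.02 ± 0.15 (adjusted p = 0.411). It was above its control on the frozen arrays, at 1.43, 0.91 and 1.06, and near it on the vitrified ones, at 0.25, 0.20 and -0.08. CCNB1IP1, a ligase of meiotic recombination, was at -0.51 ± 0.15. Of 9 germ cell and meiosis genes, 5 were above and 4 below 0, with a median of 0.04, so the list held no common direction.

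Enzymes and transporters made up most of the others. FBP2, a gluconeogenic phosphatase, was at -0.86 ± 0.15, with -1.03, -0.52 and -1.02 in the pairs. ABCB1, the multidrug efflux pump, was at -0.91 ± 0.22, with -0.41, -1.50 and -0.82. PRXL2A, a peroxiredoxin-like protein, was at -0.94 ± 0.14 with 5 of 5 overlapping probes below 0. SLC30A4, a zinc exporter, was at -0.82 ± 0.18, MFSD11 at -0.77 ± 0.14 and the autophagy receptor CALCOCO2 at -0.75 ± 0.13. A pair of overlapping probes without a gene symbol, A_04_P030290 and A_04_P030289, gave -1.21 and -1.19.

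Of these 28 genes, 25 were well above background in the treated channel of all 6 arrays. The groups did not overlap for 23 of them, a count that their choice favours, against 11.5% of all genes. In the treated channel all 14 higher genes were above 0 and all 14 lower genes below 0. Their choice by the size of the ratio difference favours this too, and the share among all genes was not counted. For 4 of the lower ones (HADHA, RBBP7, CLDN3 and CALCOCO2) the control channel's difference was the larger part.

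**Figure D5:**
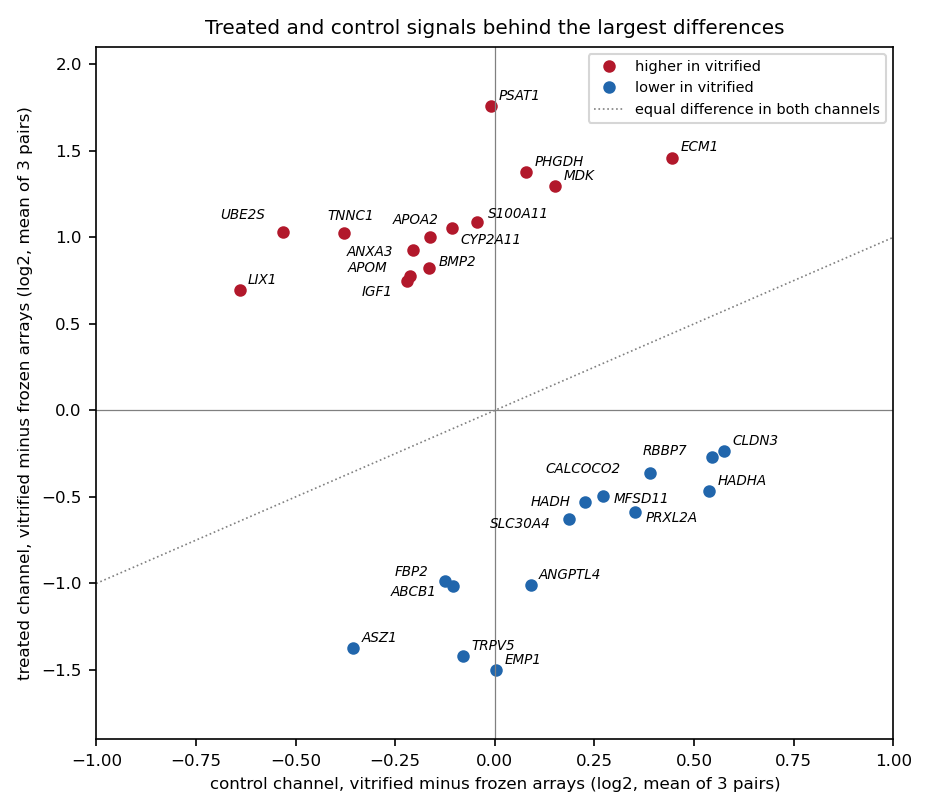
Mean difference between vitrified and frozen arrays in the treated channel (vertical, log2) against that in the control channel (horizontal, log2) for the 28 genes with the largest differences. The dotted line marks equal differences in both channels. PSAT1 and EMP1 lie near 0 on the horizontal axis, and HADHA, RBBP7 and CLDN3 lie above 0.5 on it.

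Some genes of epithelial junctions were lower in vitrified embryos. CLDN3, a tight-junction protein, was at -0.81 ± 0.18 (adjusted p = 0.470). Its ratio was -0.28, -0.11 and -0.22 on the vitrified and 0.19, 0.58 and 1.05 on the frozen arrays. CDH1, the epithelial cadherin, was at -0.41 ± 0.13 and the sodium-proton exchanger SLC9A3 at -0.55. Of 23 genes of junctions, pumps and fluid transport, 16 were below 0, with a median of -0.15. At an unadjusted p under 0.05, 3 were lower, against 3.76% of all genes. By the treated signals alone the count below 0 was 13. The sodium pump chain ATP1B1 was at -0.02, and the water channel AQP3 was at 0.18, -0.56 and -1.07 in the pairs.

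Trophectoderm identity genes gave no such lean. Of 8 tested, 6 were above 0, with a median of 0.13, and none was at an unadjusted p under 0.05. TFAP2C was at -0.31 ± 0.14 and HAND1 at 0.26 ± 0.12. The log2 of the summed treated signal of the list's 9 genes ranged from 15.35 to 15.63 on vitrified and from 15.10 to 15.26 on frozen arrays. Those ranges do not overlap. In the control channel the sum ranged from 14.829 to 15.511 on vitrified and from 14.964 to 15.245 on frozen arrays. Most of the sum comes from KRT8 and KRT19, with mean treated signals of 14.44 and 14.13 on vitrified arrays, against 11.23 for GATA3, the next.

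In the epiblast list 7 of 10 genes were above 0, with a median of 0.16. POU5F1, the pluripotency factor, was at 0.73 ± 0.19 (adjusted p = 0.510). Its ratio was -0.65, -0.17 and 0.63 on the vitrified and -0.94, -0.88 and -0.56 on the frozen arrays, so vitrified array 1 lay among the frozen ones. ETV4, a target of FGF signalling, was at 0.53 ± 0.12, OTX2 at 0.40 and NODAL at 0.28. For NODAL the control signal held the larger part, at -0.23 against 0.05 for the treated signal. The treated signals of ETV4 and NODAL were each well above background on 2 vitrified and 2 frozen arrays. The 3 genes below 0 were the pluripotency factors ESRRB, at -0.60 but above 0 in pair 3, and KLF5, at -0.21, and the factor ETV5, at -0.30. DNMT3B and LIN28A were at 0.05 and 0.02.

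The lists of damage and stress genes had medians near 0. Heat shock proteins and chaperones were above 0 for 6 of 14, with a median of -0.05, and HSP90B1, an endoplasmic reticulum chaperone, was at 0.42 ± 0.14. Most of that lay in the control signal, at -0.34 against 0.07 for the treated signal. Antioxidant genes were above 0 for 6 of 15, with a median of -0.08, and GSTP1, a glutathione transferase, was at 0.55 ± 0.17, while the peroxiredoxin-like PRXL2A was at -0.94. In the list of apoptosis and p53 targets, 9 of 12 were above 0, with a median of 0.07, and BCL2L1, which holds back cell death, was at -0.33 ± 0.14. CDKN1A, the p53-induced inhibitor of the cell cycle, was at 0.46 ± 0.14. Osmotic stress genes were above 0 for 8 of 13, with a median of 0.04. SLC5A3, the inositol carrier, was at -0.39 ± 0.17.

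Other lists gave medians near that of all genes. For glycolysis and gluconeogenesis 10 of 17 were above 0, with a median of 0.06, and GAPDH was at 0.56 ± 0.18 against FBP2 at -0.86. For cholesterol and fatty acid synthesis 5 of 13 were above 0, with a median of -0.05. Drug transporters and detoxification genes were above 0 for 4 of 11, with a median of -0.08.

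Markers of blood and of the uterus differed between arrays of one group. HBB2, a beta globin, was at 1.69 ± 1.02 (adjusted p = 0.687). Its ratio was 1.78, 4.61 and 4.29 on the vitrified and 3.60, 1.25 and 0.75 on the frozen arrays. The globin was thus above the control on all 6 arrays, and pair 1 went against the other pairs, at -1.83 beside 3.36 and 3.53. HBA, alpha globin, gave 2.27, 2.42 and 2.52 on the vitrified and 2.33, 0.47 and 0.53 on the frozen arrays. Its control signal also differed within the pairs, by -0.14, 2.23 and 1.63, although both arrays of a pair name 1 control extract.

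All 6 tested genes of the blood and immune list were above 0, with a median of 0.38. At an unadjusted p under 0.05, 1 was higher, against 4.98% of all genes. The log2 of the summed treated signal of the list's 9 genes ranged from 13.95 to 17.31 on vitrified and from 12.29 to 15.33 on frozen arrays. PTPRC and CD3E were not well above background on any array, and CD74 was so in the treated channel of 1 vitrified array and in 1 control measurement. The list's myeloid markers were detected more widely: CD14, CD68 and ITGAM in the treated channel of 3 vitrified arrays each, and of 3, 2 and 2 frozen arrays. Globin levels thus moved with pairs 2 and 3 as the serum proteins did, and their part in the result was not tested.

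Uteroglobin, SCGB1A1, the main protein of rabbit uterine fluid, was at 0.52 ± 0.28, with ratios of 2.53, 2.52 and 0.55 on the vitrified and 1.25, 2.01 and 0.78 on the frozen arrays. Its 10 probes, which overlap, gave 0.49 to 1.52, and 7 of them were higher at an unadjusted p under 0.05, but not the brightest, which stands for the gene here. WFDC2, a secreted epithelial protein, was at 0.76 ± 0.38 and below 0 in pair 1. Of 7 tested uterine genes 5 were above 0, with a median of 0.09 and none at an unadjusted p under 0.05 by each gene's brightest probe. The log2 of the summed treated signal of the list's 9 genes ranged from 12.29 to 12.96 on vitrified and from 11.16 to 12.30 on frozen arrays. The receptor ESR1 was not well above background on any array. Of the same list, the receptor PGR was so in the treated channel of 2 vitrified and 2 frozen arrays, and OVGP1 of 3 and 3. OTUD6A, a deubiquitinating enzyme, was above its control on every array, at 1.25 to 1.58 on vitrified and 1.57 to 1.82 on frozen arrays, with a difference of -0.28 ± 0.15. EGFLAM, a matrix protein, was at 0.38 ± 0.27.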

How the data were processed

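The deposited intensities are, per the file headers, each channel's mean spot signal and median local background, from Agilent Feature Extraction 10.10.1.1. The log10 ratio in the files rests, per the file headers, on signals already corrected for background and dye by the authors' scanner software, and served as an alternative. Intensities were corrected with normexp (offset 50) and normalised by loess in limma 3.58.1 under R 4.3.3. Probes were named through a RefSeq table of assembly mOryCun1.1, which gave 1 symbol to 21326 of 43603 probes.

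The treated over control log2 ratios were fitted with the replicate number as a block, 2 residual degrees of freedom and moderated variances, and p was adjusted by Benjamini-Hochberg over 30761 probes. Pairing rests on the named control extract. Deviations from the group means correlated at 0.02, 0.60 and 0.17 within pairs 1, 2 and 3. Arrays of the same dye but different number correlated at 0.16 (vitrified 1, frozen 3) and 0.31 (vitrified 3, frozen 1). Those of different dye correlated at -0.45 to -0.14. Fitted as a random effect, the replicate block had a correlation of -0.10. Pairing by number thus correlated no more than same-dye arrays did, except in pair 2. An exact test of 3 pairs cannot go below 0.25, so none was run. Single-channel signals were quantile-scaled on their mean.

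The comparison, the 23 lists and the rule for named genes were chosen with earlier results of these data known. The rule takes per direction up to 14 genes with an unadjusted p under 0.01 and 1 sign in all pairs, 2 members per list, at most 2 unnamed probes and genes fixed by name. Other named list members were chosen after their values were seen. C1QTNF1, fixed by name, was not analysed here. Some genes that the rule takes are not reported here. The fit was tested on simulated data. The number of arrays limits the precision.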

Additional observations from a re-analysis of the deposited data

Results flagged for a closer look

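For 15 of the described features every vitrified array lay on one side of its control and every frozen array on the other. The choice of features by size and common sign favours such a count, and the share among all genes was not counted. The wider condition, that the ratios of both groups do not overlap, held for 11.5% of all genes. The difference between both groups was tested for each by limma's moderated test, and none passed. Above the control in vitrified and below it in frozen embryos were PSAT1 (1.77), UBE2S (1.56), LIX1 (1.33), the unnamed probe A_04_P033418 (1.31), SLC1A5 (0.95) and GATA4 (0.46). The reverse held for ANGPTL4 (-1.10), HADHA (-1.004), PRXL2A (-0.94), RBBP7 (-0.82), SLC30A4 (-0.82), CLDN3 (-0.81), MFSD11 (-0.77), HADH (-0.75) and CALCOCO2 (-0.75). Values are vitrified minus frozen log2 differences, with adjusted p from 0.411 to 0.555.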

How the results depend on the processing

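No probe was called in any alternative fit with all 3 pairs, the smallest adjusted p there being 0.0778 with a variance trend and robust moderation. Leaving out a pair gave 0 to 875 calls and 809 to 5652 probes at an unadjusted p under 0.05, the upper values without replicate 1. Leaving out either array of a pair removes the pair. Without the replicate block there were 0 calls and 2320 probes at an unadjusted p under 0.05. The slide as a covariate with the replicate block left 809. Only pair 2 spans both slides, so that fit amounts to leaving out replicate 2 and is no separate check. The treated channels alone gave 6717, where the cause was not tested. Of 69 described features, 39 passed without replicate 1, against 2.84% of all probes. Most features were chosen by their differences in these same pairs, which favours that count. Without replicate 2 or without replicate 3, 0 passed. Only ESM1 with treated channels alone (-0.26) changed sign, the cause of which was not tested. List medians moved most often under median centring, in 10 of 24.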
